A study of Rattus norvegicus with 6 samples.

Results

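Iron leaves the cells of the liver through ferroportin, encoded by Slc40a1, and hepcidin, encoded by Hamp, decides how much ferroportin stays on the cell surface. This account follows 10 genes of that axis and of heme handling, set out by role: export (Slc40a1, Hamp), uptake and transport (Tfrc, Tf), storage (Fth1, Ftl1) and heme (Hmox1, Hpx, Hp, Alas1). They were found by matching the RefSeq transcript of each row, without its version, to rat gene symbols. Of the 10 genes 9 were measured, each by 1 row among 19345, and Tfrc, the transferrin receptor, had no matched row. The genes were selected on their roles with measured differences between the regimens already known, that of ferroportin first, and the row of a gene was chosen by the highest mean intensity over the 6 arrays, a rule that decided nothing here since 0 of the 9 had a further row. The members' own differences are therefore descriptions that no test supports, and a count of rows past a threshold that includes them is given only beside the same share of all rows.

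The livers came from male Sprague-Dawley rats, 90 to 120 days old, bled by cutting off the tail, which leaves the wound free to go on bleeding. Limited resuscitation aimed Ringer's solution, a balanced salt solution, at a mean arterial pressure of 50 to 60 mmHg, and aggressive resuscitation aimed the same fluid at over 80 mmHg. Both groups were bled, anaesthetised and infused, and both were killed by exsanguination at 330 min. Each regimen had 6 rats, of which 3 gave a liver to a 1-colour array. Rats that were not bled were not analysed here, so every difference is between the regimens. All values are RMA intensities of RNA on a linear scale, and protein was not measured here. They have no unit and can be compared between arrays for a gene but not between genes.

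In mammals hepatocytes secrete hepcidin, which binds ferroportin and sends it for degradation, so iron is held inside cells. Macrophages, which in the liver are the Kupffer cells, take up old red cells, break down their heme with heme oxygenase and return the iron through ferroportin to transferrin in plasma. Free hemoglobin is caught by haptoglobin and free heme by hemopexin, both made by hepatocytes. The Hamp gene is switched on by bone morphogenetic protein (BMP) signals that report iron and by interleukin 6 signals that report inflammation.

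The 250 bases before the transcription start are shown for hepcidin, whose regulators are described below, and for ferroportin, the member with the widest gap between the regimens. Both were taken from RefSeq's GRCr8 assembly, at chr1:95300272-95300521 and chr9:55543461-55543710, minus strand in both cases, and are written 5′ to 3′ in the direction of the gene. Capitals mark GGCGCC, the BMP-responsive element, and TTCNNNGAA, the site bound by STAT factors, both known from the human and mouse hepcidin promoters.
Hamp: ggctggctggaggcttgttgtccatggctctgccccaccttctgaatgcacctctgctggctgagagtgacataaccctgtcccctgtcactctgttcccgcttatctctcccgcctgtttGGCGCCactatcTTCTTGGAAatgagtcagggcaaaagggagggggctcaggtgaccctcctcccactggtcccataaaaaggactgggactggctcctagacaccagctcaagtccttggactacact
Slc40a1: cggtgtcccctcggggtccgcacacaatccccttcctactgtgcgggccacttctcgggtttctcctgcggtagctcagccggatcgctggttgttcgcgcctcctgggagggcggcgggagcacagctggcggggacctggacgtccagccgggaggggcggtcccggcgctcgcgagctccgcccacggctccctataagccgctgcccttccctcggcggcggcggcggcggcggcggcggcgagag
In Hamp the first motif lay 129 to 124 and the second 117 to 109 bases before the start, without overlap. Both patterns are the same on the 2 strands, so each was found on both. Among 33469 rat promoter windows of this length, 8.69% held GGCGCC, 7.67% held TTCNNNGAA and 0.379% held both. Neither motif, nor TGACNNNGC, a core of the antioxidant response element searched on both strands and present in 10.1% of windows, occurred in the ferroportin window, which covers 1 start of a gene with several RefSeq transcripts. Of the 10 genes 6 had an entry. In the other windows Tfrc held GGCGCC, Alas1 held the STAT motif as TTCGTGGAA, Hpx held the antioxidant core on the reverse strand and Tf held none of these. No entry was found for Fth1, Ftl1, Hmox1 and Hp.

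Ferroportin was the member that separated the regimens most. Slc40a1 had an intensity of 335.5, 295.9 and 323.5 under limited resuscitation, against 103.9, 84.3 and 135.7 under aggressive resuscitation. All 3 limited livers lay far above all 3 aggressive livers. The means were 318.3 ± 20.3 under limited and 108 ± 25.9 under aggressive resuscitation (SD, n = 3 each), a 3.00-fold higher level under limited resuscitation and a log2 difference of 1.59 (SE 0.225). The signal was modest, and how far such values stand above background is not known: the limited values were above and the aggressive values below the median of their array, which lay between 226.4 and 243.4 for limited and between 211.7 and 245.3 for aggressive arrays. Leaving out each array in turn gave differences between 1.42 and 1.76.

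The transcript of hepcidin, the hormone that removes ferroportin, was bright and overlapped between the regimens. Hamp had 25589.7, 24909 and 27550.3 under limited resuscitation, against 31970.9, 27579.3 and 25989.3 under aggressive resuscitation. Only aggressive array 1 stood clear of the limited range by more than a small margin. The log2 difference was -0.13 (SE 0.180), and its 95% interval ran from -0.55 to 0.30. Without aggressive array 1 it was -0.04. In the same array, log2 Slc40a1 minus log2 Hamp was on average 1.71 higher under limited resuscitation, without overlap between the groups. This gap restates the difference of Slc40a1, known when it was chosen, beside the small one of Hamp, and is a description.

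**Figure D1:**
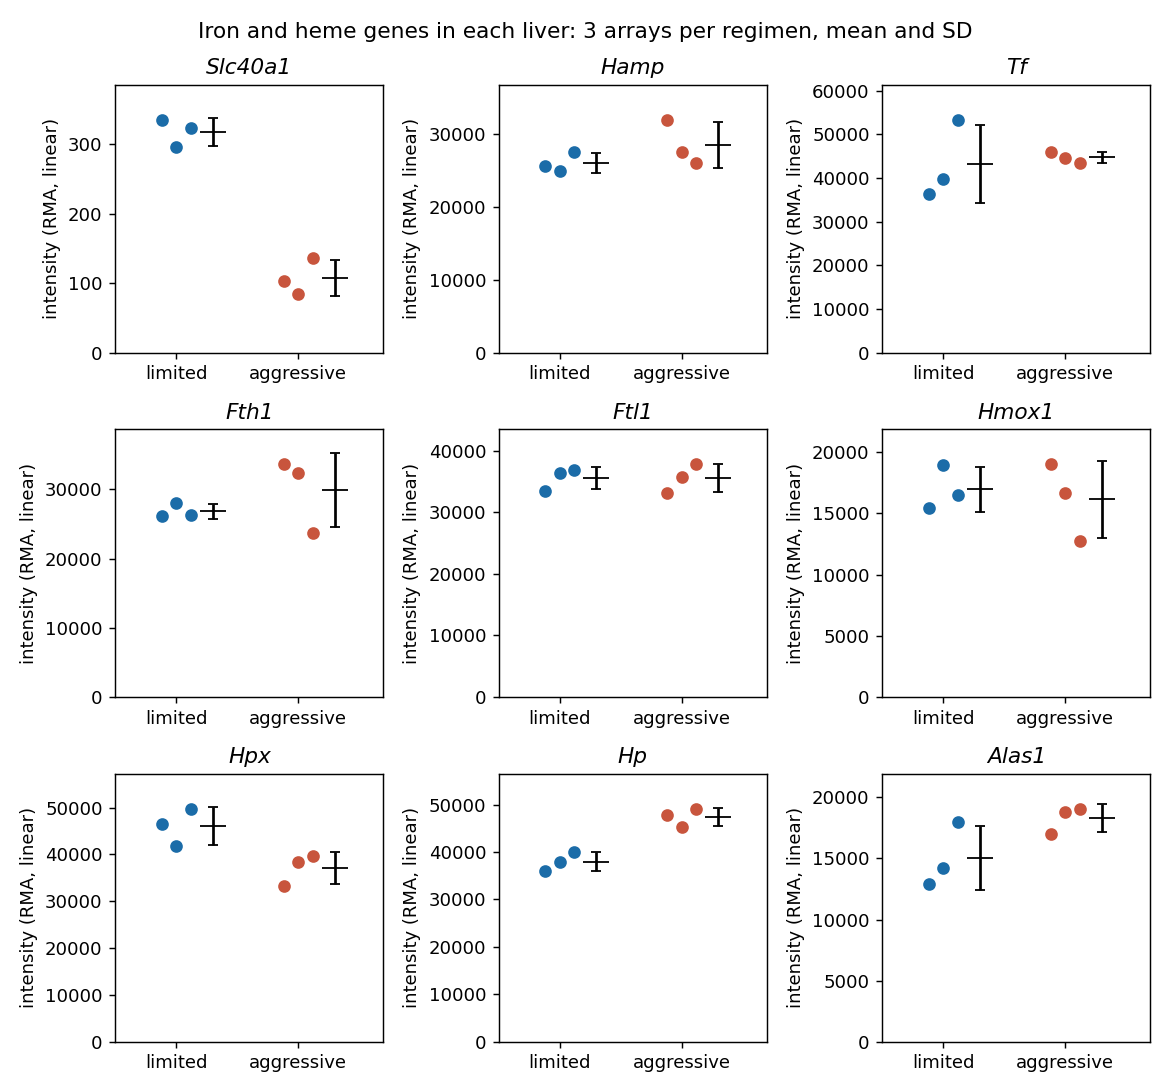
RMA intensity (y axis, linear, from 0) of the 9 measured iron and heme genes in each liver. Blue points are the 3 limited and red points the 3 aggressive arrays, and bars give mean and SD. Slc40a1, Hpx and Hp are the genes whose groups do not overlap, with Slc40a1 at 295.9 or more in limited and 135.7 or less in aggressive livers.

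Transferrin, which carries iron in plasma, was Tf at 36344.5, 39749 and 53282.9 under limited resuscitation, against 45932.5, 44603.4 and 43476.3 under aggressive resuscitation. The limited livers bracketed the aggressive ones, and the log2 difference was -0.07 (SE 0.207). Ferritin, the iron storage shell, is built from a heavy and a light subunit. Fth1, the heavy subunit with ferroxidase activity, had 26066.3, 28034.3 and 26343.3 under limited resuscitation, against 33584.7, 32395 and 23709 under aggressive resuscitation. Aggressive arrays 1 and 2 lay above and array 3 below all limited arrays, and the log2 difference of -0.14 ran from -0.30 without aggressive array 3 to -0.05 without aggressive array 1 and -0.07 without aggressive array 2. Ftl1, the light subunit, averaged 35537.1 ± 1794.7 under limited and 35560.3 ± 2311.1 under aggressive resuscitation (SD, n = 3 each). Its 95% interval for the log2 difference ran from -0.40 to 0.40, so a change of either sign within those bounds was not excluded with 3 arrays per group. Ferritin genes have near-identical copies in the rat genome, and a row may gather signal from several of them.

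Heme handling was measured by 4 members. Hmox1, the inducible heme oxygenase that frees iron from heme, had 15456.4, 18962.6 and 16466.5 under limited resuscitation, against 19005.9, 16677.2 and 12727.1 under aggressive resuscitation. The groups overlapped throughout, with a log2 difference of 0.09 and a 95% interval from -0.42 to 0.60. The transcripts of hemopexin and haptoglobin, the proteins that bind heme and hemoglobin, differed in opposite directions. Hpx had 46612.4, 41750.9 and 49745.9 under limited resuscitation, against 33204.1, 38411 and 39682.9 under aggressive resuscitation. Hp had 35992.5, 37888.8 and 39970 under limited resuscitation, against 47760.9, 45285.6 and 49110.4 under aggressive resuscitation.

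Neither gene overlapped between the groups. Hpx was 1.24-fold higher under limited resuscitation (log2 difference 0.31, SE 0.183), and Hp was 1.25-fold higher under aggressive resuscitation (log2 difference -0.32, SE 0.170). Within each array, log2 Hpx minus log2 Hp was 0.37, 0.14 and 0.32 under limited resuscitation, against -0.52, -0.24 and -0.31 under aggressive resuscitation. The zero of this quantity has no meaning, since different probes are not on a common scale. Its mean differed by 0.63 between the regimens, a value that a common scaling of an array leaves as it is. It restates the differences of 2 members chosen with this contrast known, so it is a description. Both rows were bright, at 62.8% of the array's highest intensity or more in every array.

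Alas1, the rate-limiting enzyme of heme synthesis in the liver, had 12892.3, 14207.2 and 17953.6 under limited resuscitation, against 17007.4, 18826.8 and 19060.6 under aggressive resuscitation. Limited arrays 1 and 2 lay below all aggressive arrays, and limited array 3 fell inside the aggressive range. The log2 difference was -0.30 (SE 0.199), and -0.19 without limited array 1.

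Of the 9 measured members, 3 did not overlap between the groups, 2 with the limited arrays above (Slc40a1, Hpx) and 1 below (Hp). Over all rows 19.8% did not overlap, 10% with the limited arrays above and 9.76% below, and since the members were chosen with this contrast known, nothing is read from this count or from those that follow. Members passing limma's test numbered 0 of 9, against 0.114% of all rows (22 rows) after Benjamini-Hochberg adjustment with a threshold of 0.05, 0.0414% higher and 0.0724% lower under limited resuscitation. At an unadjusted p under 0.05 there was 1 member, Slc40a1, against 13.1% of all rows. When the prior variance was made robust and allowed to follow intensity, 1 member (Slc40a1) passed, against 2.95% of all rows, 1.56% higher under limited resuscitation. By the looser rule of an unadjusted p under 0.05 and a 2-fold difference there was again 1, Slc40a1, against 3.22% of all rows. The median log2 difference was -0.07 over the members and 0.01 over all rows.

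The members other than Slc40a1 were close to the top of the arrays. Their intensities were between 22.5% and 99.9% of the highest intensity on the same array. The 282 rows at least as bright as the dimmest of them had a median absolute log2 difference of 0.12, against 0.26 over all rows, and 2 of them differed by 2-fold or more. No saturation marks came with these values, and the part of brightness in these small differences was not tested.

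Of 6 lists of other iron and heme genes, 57 of 91 genes were measured, and 0 passed the adjusted test (limma, smallest adjusted p = 0.0829). By limma, unadjusted p was under 0.05 for 15 of the 57, 12 higher and 3 lower under limited resuscitation. Over all rows it was 13.1%, 6.86% higher and 6.19% lower. Fitted without the rows dimmer than the median, it was 15 of the 45 genes left, against 2022 of 9673 rows. The groups did not overlap in 24 of the 57 genes (42.1%), 17 with the limited arrays above and 7 below. This compares with 19.8% of all rows and 23.2% of the rows matched to a gene symbol. The median log2 difference was 0.10. Differences below are log2 values, limited minus aggressive, and an adjusted p is that of limma over all rows.

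**Figure D2:**
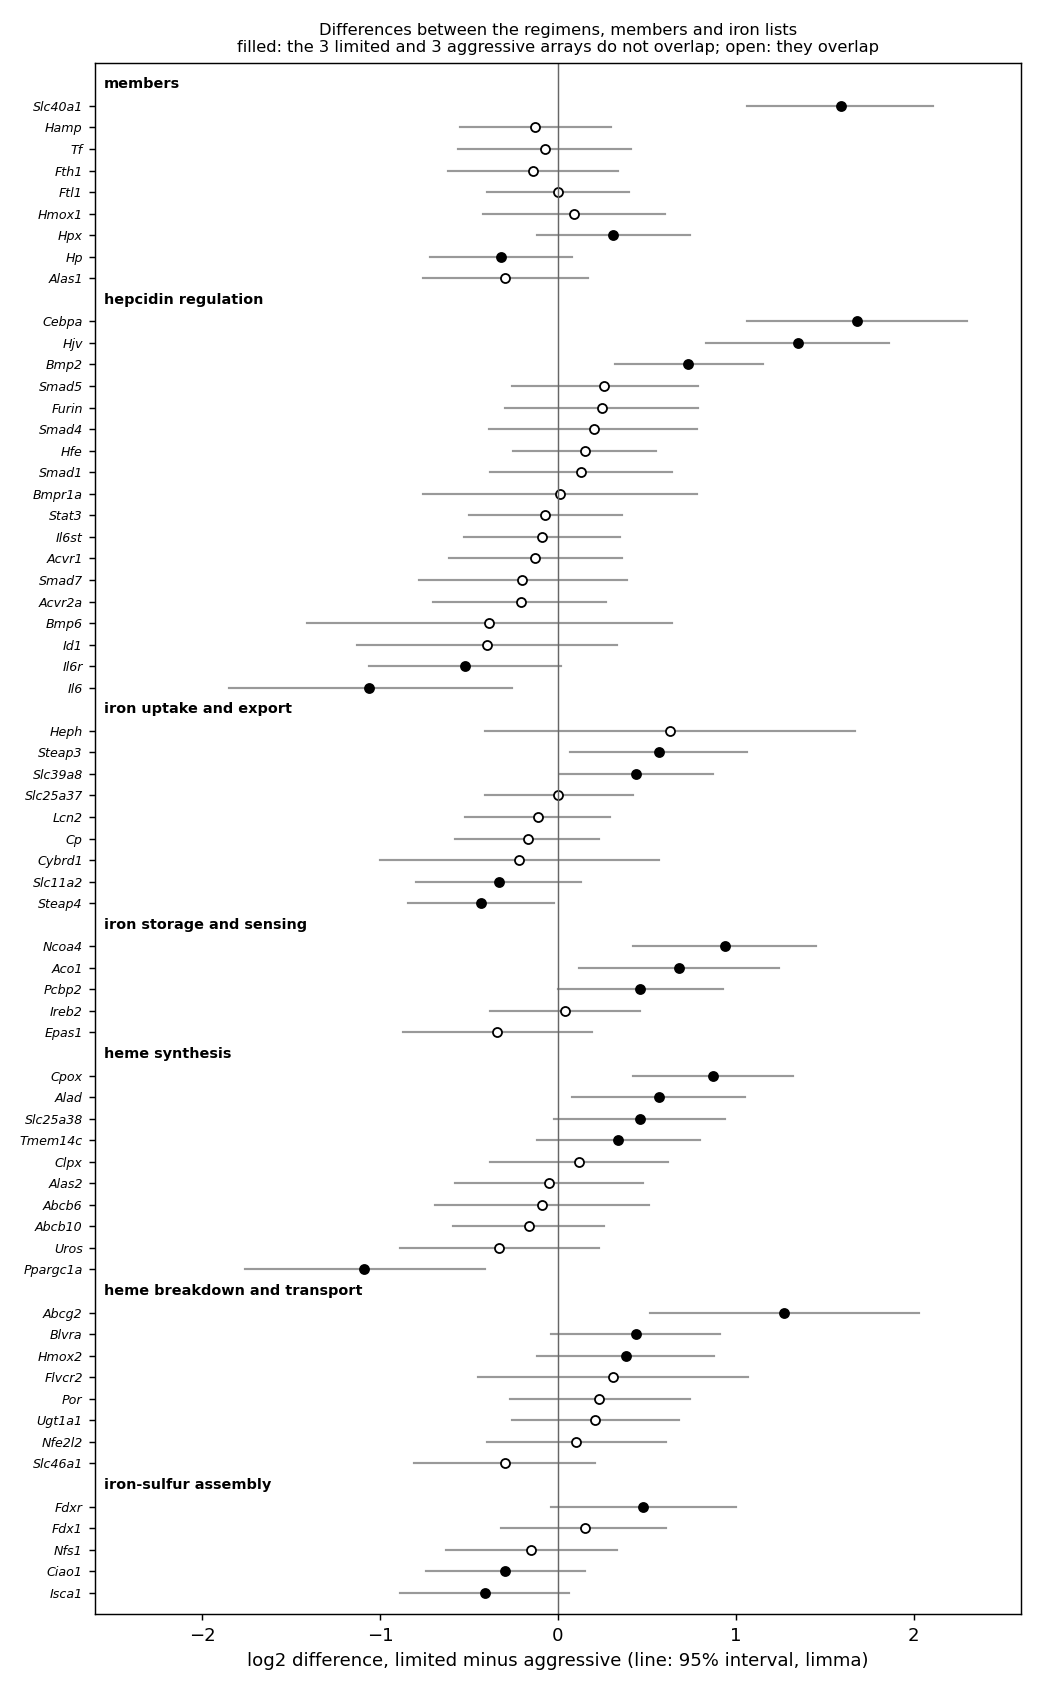
Log2 difference, limited minus aggressive (x axis), of the 9 members and 55 of the 57 other iron and heme genes by list (y axis; 2 are not shown), with limma's 95% interval as a line. Filled points mark genes whose groups do not overlap, and Slc40a1 at 1.59, Cebpa at 1.68 and Hjv at 1.35 lie farthest to the right.

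Of the 18 measured genes of hepcidin regulation, 5 (27.8%) did not overlap between the groups, 3 with the limited arrays above and 2 below, against 19.8% of all rows, and the list's median was -0.03. Hjv, which encodes hemojuvelin, the BMP co-receptor on hepatocytes that drives Hamp, had 675.3, 754.5 and 729.5 under limited resuscitation, against 223.5, 288.8 and 350 under aggressive resuscitation. Every limited liver had nearly the same high level, 2.54-fold above the aggressive mean on the log scale (difference 1.35, SE 0.218, adjusted p = 0.0896, limma). Bmp2, a BMP ligand made by liver endothelium that raises Hamp in mice, averaged 256.5 ± 27.1 under limited and 153.7 ± 5.66 under aggressive resuscitation (SD, n = 3 each), a 1.66-fold higher level that did not pass (limma adjusted p = 0.184). Cebpa, a hepatocyte transcription factor that acts on the Hamp promoter, had 4437.4, 5791.6 and 4079.1 under limited resuscitation, against 1531.2, 1096.9 and 1901.3 under aggressive resuscitation (adjusted p = 0.0829, limma).

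Of the interleukin 6 pathway, Il6 and Il6r lay below without overlap, whereas Il6st and Stat3 overlapped, and none of the 4 passed (limma). Il6, which encodes interleukin 6, was dim, at 51.8, 42.8 and 34.3 under limited resuscitation, against 80.2, 140.7 and 60.5 under aggressive resuscitation (difference -1.06, adjusted p = 0.274, limma). With an offset of 50 added before the log its difference was -0.59. Against aggressive array 2 alone, the highest of the 6, it was -1.73, and without that array it was -0.72. Il6r, its receptor, differed by -0.52 without overlap between the groups, and Stat3, which carries the signal to the nucleus, by -0.07 and Il6st, the signalling chain gp130, by -0.09. Bmp6, the BMP ligand induced by iron, ranged from 167.9 to 370.9 under limited and from 206.5 to 538.1 under aggressive resuscitation. Id1 and Smad7, both BMP target genes, differed by -0.40 and -0.20, with overlap.

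**Figure D3:**
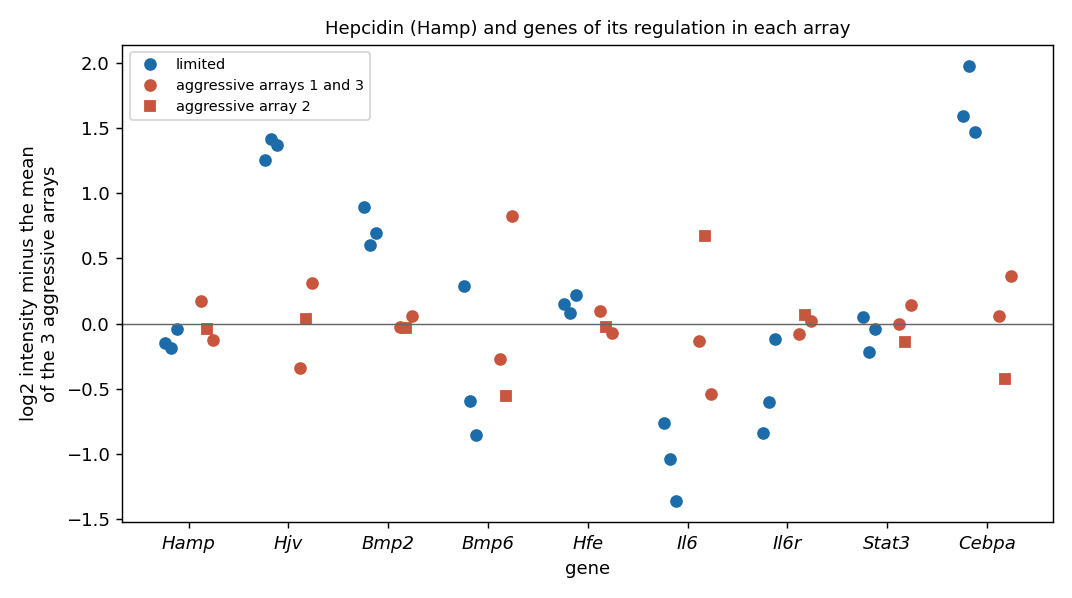
Log2 intensity minus the mean of the 3 aggressive arrays (y axis) for Hamp and 8 genes of its regulation (x axis), 1 point per array, blue for limited and red for aggressive, with a square for aggressive array 2. Hamp sits near 0 in every array. All limited points of Hjv, Bmp2 and Cebpa lie above and those of Il6 and Il6r below the aggressive points.

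Of 5 measured genes of iron storage and sensing, 3 (60.0%) lay above under limited resuscitation without overlap, against 10% of all rows. Ncoa4, the receptor that carries ferritin to lysosomes for breakdown, had 523.4, 545.6 and 496 under limited resuscitation, against 209, 321.3 and 300.7 under aggressive resuscitation, a 1.91-fold higher level (difference 0.94, SE 0.220, adjusted p = 0.180, limma). Aco1, whose product is cytosolic aconitase or, without its iron-sulfur cluster, iron regulatory protein 1, was 1.60-fold higher, and Pcbp2, an iron chaperone, 1.38-fold higher. Against aggressive array 2 alone Pcbp2 differed by 0.20, less than its 0.46 over all arrays. None of these 3 genes passed the adjusted test (limma), and all 3 had an unadjusted p under 0.05. Ireb2, which encodes iron regulatory protein 2, differed by 0.04. Epas1, the hypoxia-inducible factor 2 alpha subunit, was 8274.2, 8100 and 7782.1 under limited resuscitation, against 11493.8, 7693.7 and 11967.7 under aggressive resuscitation, so only aggressive arrays 1 and 3 were high and the difference, -0.34, was 0.07 against array 2 alone. The list's median was 0.46.

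Among 9 measured transport genes, 2 lay above and 2 below without overlap (44.4%, against 19.8% of all rows), and the median was -0.11. Steap3, an endosomal ferrireductase, was 1.48-fold and Slc39a8, a metal importer, 1.36-fold higher under limited resuscitation. Steap4, another metalloreductase, was 1.35-fold and Slc11a2, the divalent metal transporter DMT1, 1.26-fold higher under aggressive resuscitation. The difference of Slc11a2, -0.33, was -0.17 against aggressive array 2 alone. The adjusted p of these 4 genes lay between 0.333 (Steap3) and 0.528 (Slc11a2) by limma. Cp, the plasma ferroxidase ceruloplasmin that works with ferroportin, differed by -0.17, and Lcn2, a binder of bacterial iron carriers, by -0.11, both with overlap. Slc39a14, the main hepatic importer of free iron, had no matched row.

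In heme synthesis the later enzymes Alad and Cpox lay above under limited resuscitation without overlap, whereas Alas1, the first enzyme, had a difference below 0. Cpox, coproporphyrinogen oxidase, had 4788, 6479.2 and 5499.4 under limited resuscitation, against 3093.6, 3077.3 and 2936.3 under aggressive resuscitation (difference 0.87, SE 0.190, adjusted p = 0.161, limma). The aggressive livers were nearly equal and all limited livers exceeded them. Alad, aminolevulinate dehydratase, was 1.48-fold higher, also without overlap (limma adjusted p = 0.326).

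Uros, uroporphyrinogen synthase, differed by -0.33 with overlap, and Urod, Ppox and Fech had no matched row. Slc25a38, which brings glycine into mitochondria for the Alas1 reaction, and Tmem14c, needed for porphyrin import, differed by 0.46 and 0.34 without overlap. Ppargc1a, a coactivator that induces Alas1 in mouse liver, was dim. It had 48.7, 58.5 and 37.6 under limited resuscitation, against 78.5, 142.2 and 91.8 under aggressive resuscitation (difference -1.09, or -0.63 with the offset, limma adjusted p = 0.209). A link between Ppargc1a and Alas1 was not tested. Within each array, log2 Alas1 minus log2 Cpox was 1.43, 1.13 and 1.71 under limited resuscitation, against 2.46, 2.61 and 2.70 under aggressive resuscitation. Cpox was named for its small p and Alas1 was chosen with its difference known, so these values are a description. Alas1 by itself overlapped between the groups. Of the 11 measured genes of heme synthesis, 5 lay above and 1 below without overlap (54.5%, against 19.8% of all rows), and the median was 0.12.

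Downstream of heme, the constitutive heme oxygenase Hmox2 differed by 0.38 and the biliverdin reductase Blvra by 0.44, both without overlap, whereas Hmox1 overlapped. Against aggressive array 2 alone the differences were 0.64 for Hmox2 and 0.71 for Blvra. Without that array Hmox2 differed by 0.25 and Blvra by 0.30. Abcg2, an exporter of porphyrins, was dim and 2.41-fold higher under limited resuscitation, at 125.5, 116.5 and 185.3, against 65.4, 38.1 and 77.3 under aggressive resuscitation (adjusted p = 0.192, limma). Its difference of 1.27 was 0.80 with the offset. Slc46a1, a carrier of folate and heme, differed by -0.30 with overlap, and by -0.14 without aggressive array 3. The list of 8 measured genes had 3 above and 0 below without overlap (37.5%, against 19.8% of all rows), and a median of 0.27. In iron-sulfur cluster assembly, where 6 of 15 genes were measured, Fdxr, ferredoxin reductase, differed by 0.48, while Isca1 and Ciao1, both assembly factors, differed by -0.41 and -0.30, all without overlap. These were 3 of 6 genes (50.0%, against 19.8% of all rows), and the list's median was -0.20. Fdxr differed by 0.76 against aggressive array 2 alone and by 0.34 without that array.

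**Figure D4:**
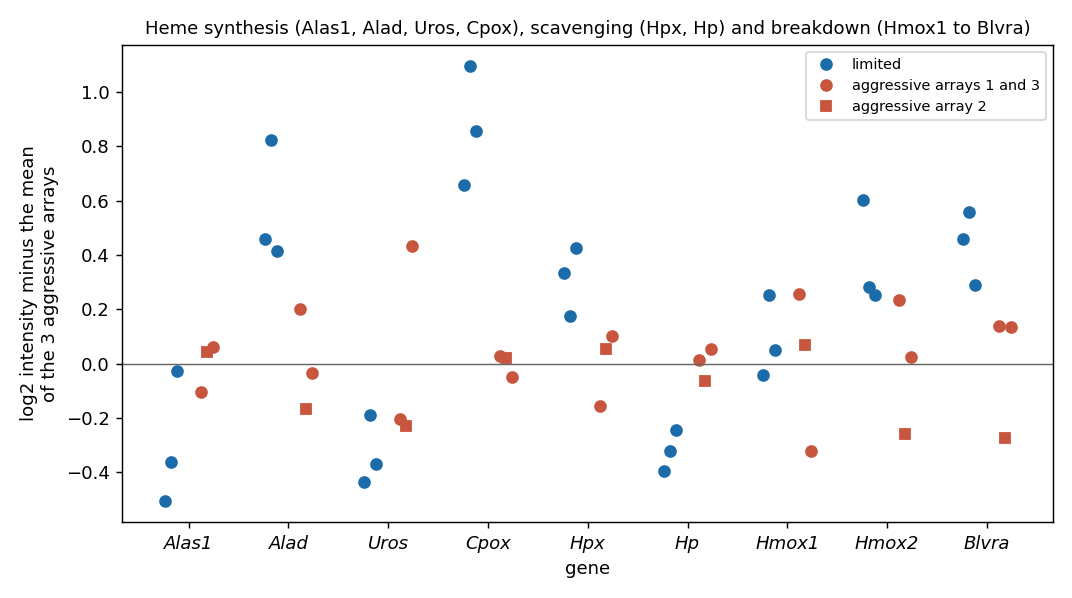
Log2 intensity minus the mean of the 3 aggressive arrays (y axis) for heme genes in pathway order (x axis): synthesis (Alas1, Alad, Uros, Cpox), binding by Hpx and Hp, and breakdown from Hmox1 to Blvra. Blue points are limited arrays and red points aggressive arrays, with a square for aggressive array 2. Limited points lie above for Alad, Cpox, Hpx, Hmox2 and Blvra and below for Hp, and they overlap for Alas1, Uros and Hmox1.

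Ferroportin is expressed by Kupffer cells and by hepatocytes, and macrophage markers were higher in the same arrays. Of 13 listed Kupffer cell and macrophage markers 9 were measured, all with a difference above 0 (median 0.73). The limited arrays lay above without overlap in 6 (66.7%), against 10% of all rows. By limma 0 passed the adjusted test. Unadjusted p (limma) was under 0.05 for 6, all higher under limited resuscitation, against 6.86% of all rows in that direction. The summed intensity of the 9 was between 43961.8 and 50988.1 under limited resuscitation, against 29308.8 to 34427.3 under aggressive resuscitation. Different probes are not on a common scale, so a sum is set mainly by its brightest rows, here Cd68 and Cd5l. The sums of other lists below share this limit. Csf1r, the macrophage growth factor receptor, differed by 1.12 and Adgre1, the F4/80 antigen, by 1.13, the largest differences of the 9. Clec4f differed by 0.61 without overlap, whereas C1qc (0.47), Cd68 (0.29) and Vsig4 (0.08) overlapped. Cd163, the receptor for haptoglobin bound to hemoglobin, had no matched row. In bulk liver, fewer cells of a type and less RNA per cell cannot be told apart.

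Ferroportin was chosen with its difference known, so its values against these markers in the same array are a description. Log2 Slc40a1 minus the mean log2 of the 9 markers was -3.35, -3.64 and -3.57 under limited resuscitation, against -4.49, -4.67 and -4.13 under aggressive resuscitation, without overlap and 0.91 apart on average. Against Csf1r alone it was 0.47 apart and the groups overlapped. The part of macrophage content in the ferroportin difference was not tested.

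**Figure D5:**
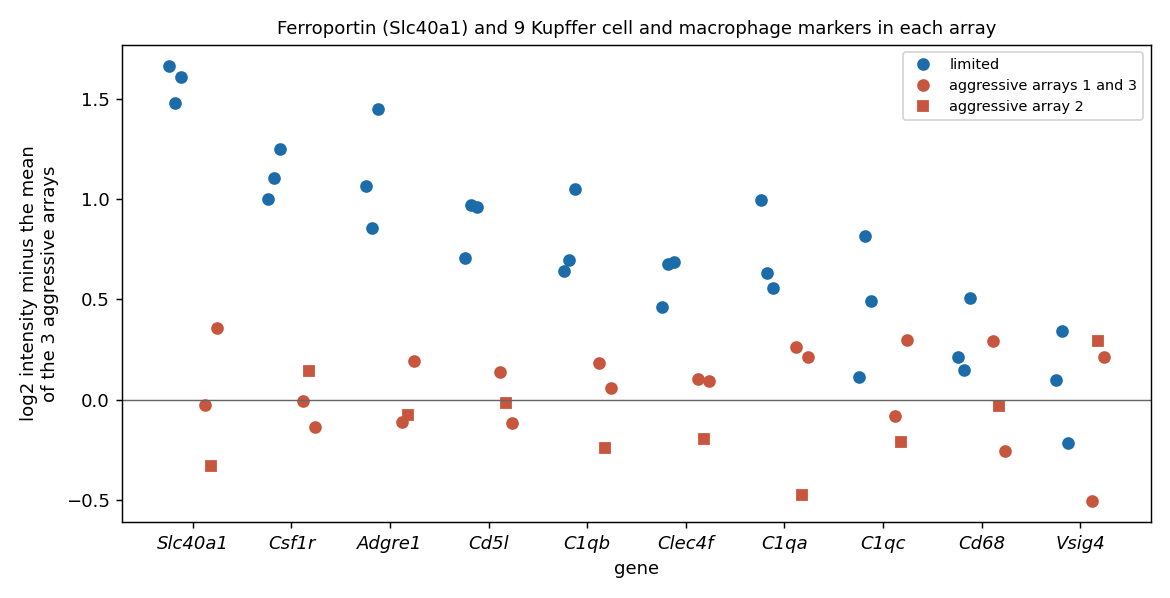
Log2 intensity minus the mean of the 3 aggressive arrays (y axis) for Slc40a1 and 9 macrophage markers ordered by p (x axis), 1 point per array, blue for limited and red for aggressive, with a square for aggressive array 2. The limited points of Slc40a1 lie 1.59 above the aggressive mean on average, and those of Csf1r 1.12 and Adgre1 1.13. Those of C1qc, Cd68 and Vsig4 overlap the aggressive points.

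Other cell types were checked in the same way. Globin transcripts, which follow red cells in the tissue, did not separate the groups as a whole. Hba-a1 averaged 21200.8 ± 3944.3 under limited and 21182.2 ± 2837.8 under aggressive resuscitation (SD, n = 3 each), and Hbb differed by 0.17 with overlap, although Hbb-b1 differed by -0.50 without overlap. The 6 measured erythroid genes summed to between 46244.7 and 56062.4 under limited resuscitation, against 49080.5 to 57937.9 under aggressive resuscitation. Hepatocyte markers were at high levels in every array, and Alb, albumin, differed by -0.05. The 10 hepatocyte markers summed to between 302613.1 and 312267 under limited resuscitation, against 341382.7 to 366632 under aggressive resuscitation. Of the 10, 3 (30.0%) lay below without overlap, against 9.76% of all rows, and their median difference was -0.08 over all 10. Among the 3 was Tat (-1.48), the 1 that passed (limma adjusted p = 0.0482). Tat averaged 11940.3 under limited and 33278.3 under aggressive resuscitation, a large part of the gap between the sums. None of the 4 neutrophil, 4 sinusoidal endothelial, 5 stellate cell or 3 cholangiocyte markers measured separated the groups, against 19.8% of all rows. Of 5 lymphocyte markers 1 (20.0%), Cd4, did, at 0.95, and rat macrophages also express Cd4.

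Surfactant transcripts, which mark lung, were high in aggressive arrays 1 and 3. Sftpc, surfactant protein C, was 30.3, 57 and 44.1 under limited resuscitation, against 1246.9, 33.7 and 1734 under aggressive resuscitation, and the 11 lung markers summed to between 574.7 and 794 under limited and between 1810.1 and 7818.7 under aggressive resuscitation. Markers of the same list that were high in aggressive array 2 as well were Car4, at 801.6 there, and Pdpn, at 738.6, which made up most of that array's sum of 1810.1. Ferroportin was lowest in aggressive array 2, where Sftpc was within the range of the limited livers, at 84.3. Against that array alone, which is 1 rat, Slc40a1 differed by 1.91, Hamp by -0.09, Hpx by 0.26, Hp by -0.26 and Alas1 by -0.34, so each kept its direction. Of the 57 other iron genes, 29 lay with that array below and 10 with it above all limited arrays, 68.4% in all, against 54.7% of all rows.

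The rows whose pattern over the 6 arrays was most like that of ferroportin were Bri3, Slc22a17, Ptprs, Abtb1 and Cav2, with Pearson correlations of log2 intensity between 0.988 and 0.991, among 4499 named rows at or above the median brightness. Slc22a17 encodes a receptor for Lcn2, and Cav2 encodes a caveolin. For Hamp they were Rpa2, Hsd17b8, Mrpl37, Ntmt1 and Il6st, between 0.954 and 0.988 among 4498 rows. These are descriptions over 6 arrays that share 1 normalization. A row picked for likeness to ferroportin has its gap between the regimens by construction.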

How the data were processed

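The values are those of 1-colour Cy3 NimbleGen arrays, per the labels' protocols. The authors deposited an RMA intensity on a linear scale for each transcript and array, per the submitters' processing notes for the tool and from the values for the scale. RMA corrects background, normalises arrays and summarises probes; no version, scanner or build was stated. Within groups, array pairs had correlations of 0.965 to 0.970, and between groups of 0.955 to 0.963. Signal over background is unknown, so whether dim rows (Il6, Ppargc1a, Abcg2, and Slc40a1 in aggressive livers) were detected, and their exact folds, are uncertain. The 3 arrays per group limit the precision. Groups and replicate numbers came from the sample titles, since the protocol fields repeat both pressure targets for every sample.

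Accessions without version were looked up in RefSeq's GRCr8 gene table, which named 7223 of 19345 rows. A gene with several rows took the brightest. Log2 intensities of all rows entered limma 3.58.1 under R 4.3.3, with 4 residual degrees of freedom and 3.26 from the prior, and two-sided p-values were adjusted by Benjamini-Hochberg across the whole table. The script was tested on simulated data. Members, lists, markers and alternatives were chosen with earlier results of these data known. Named are all members, the 4 genes of each list with the smallest p (of which 2 are not reported here), defining markers, and the 5 rows most like Slc40a1 or Hamp. Il6r, Stat3, Bmp6, Id1, Smad7, Ireb2, Cp, Lcn2, Uros, Slc25a38, Tmem14c, Hbb-b1, Tat, Cd4, Car4 and Pdpn were named after their values were seen. So were the markers Cd68, Cd5l, C1qc, Clec4f and Vsig4.

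Deviations from the group means correlated at -0.0572, -0.0517 and 0.0504 for arrays of the same number. For arrays of different numbers the values lay between -0.0717 and 0.124, so the numbers were not shown to pair rats. Figures used matplotlib 3.10.9.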

Additional observations from a re-analysis of the deposited data

How the results depend on the processing

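The log2 differences of Slc40a1, Hamp, Fth1, Hpx, Hp and Alas1 kept their direction under every alternative run: quantile normalization repeated, arrays centred, dim rows removed (Slc40a1 among them), an offset of 50, a robust prior that follows intensity, array weights, the mean of a gene's rows, the replicate block, each array left out, and aggressive arrays 1 and 3 left out together. Slc40a1, chosen with its difference known, was past the threshold with the offset (1.23) and the robust prior (1.59), and under no other of these; nothing is read from that. Without single arrays the range was 1.42 to 1.76 for Slc40a1, -0.19 to -0.04 for Hamp, -0.30 to -0.05 for Fth1, 0.23 to 0.38 for Hpx, -0.36 to -0.28 for Hp, -0.43 to -0.19 for Alas1, -0.23 to 0.04 for Tf, -0.05 to 0.04 for Ftl1 and -0.08 to 0.21 for Hmox1. Tf turned sign without limited array 1 (0.04), Hmox1 without aggressive array 3 (-0.08), and Ftl1 with quantile normalization repeated (0.04) and without limited array 1 (0.04), aggressive array 2 (0.01) or aggressive array 3 (0.04), none of them beyond the spread of the arrays. Epas1 turned to 0.07 without aggressive arrays 1 and 3, and was -0.54 without aggressive array 2 and -0.22 without aggressive array 3. The offset moved the dim genes Il6 to -0.59, Ppargc1a to -0.63 and Abcg2 to 0.80.

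The count of members that passed, 0, became 1 with the offset, the robust prior and the looser rule (unadjusted p and 2-fold). That of the other iron genes, 0 of 57, became 4 of the 45 left without dim rows. Of all 57 it became 3 with the offset and 5 by the looser rule. With the robust prior it became 6 of 57 (Cebpa, Hjv, Cpox, Ncoa4 and Aco1 among them), all 6 higher under limited resuscitation. Over all rows the count was 22 of 19345, and it became 483 of the 9673 rows left without dim rows. Of all 19345 it became 217 with the offset, 570 (2.95%) with the robust prior and 623 (3.22%) by the looser rule. Leaving out single arrays gave 0 to 2, with 2 only without aggressive array 2. It was 0 without aggressive arrays 1 and 3 (1582 rows at an unadjusted p under 0.05, limma) and 0 with the replicate block (2196 rows). The block is fitted on numbers that were not shown to pair rats. The cause of these changes was not tested.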
